A study of Mus musculus with 51 samples.

Results

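Motile cilia beat on the surface of airway cells and move mucus out of the lung. Each cilium is built on an axoneme, a ring of doublet microtubules around a central apparatus. Dynein arms on the doublets make the microtubules slide, radial spokes pass signals between the central apparatus and the arms, and molecular rulers and nexin links keep the spacing. The arms are assembled in the cytoplasm before they enter the cilium, and the transcription factors Mcidas, Foxj1 and the Rfx family turn on the programme. These data were read for a list of 44 mouse genes of this machinery. Of the 44, 37 had a probe set on the array, 35 matched by symbol and 2, Dnai1 and Dnai2, by an older synonym, with 1 probe set each. Foxj1, Dnah3, Dnah7b, Dnah12, Ccdc40, Ccdc114 and Cdhr4 were not analysed here.

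RNA came from whole mouse lung, perfused and lavaged, taken 48 h after the last exposure. All mice were males aged 6 to 8 weeks with prior skin exposure to a 1% solution of MDI (methylene diphenyl diisocyanate, a polyurethane building block that can sensitize the airways), an exposure that the control mice share. Airway exposures on days 15, 16, 19 and 20 used either MDI reacted with glutathione (called MDI below) or a control solution in which MDI and glutathione had been reacted apart. The groups were 3 MDI and 3 control arrays of BALB/c mice, 7 MDI and 9 control arrays of mice without mature B cells (strain B6.129S2-Ighmtm1Cgn/J, with a disrupted immunoglobulin mu heavy chain gene, called B-cell deficient), 3 MDI and 5 control arrays of C57BL/6 mice given crofelemer, and 13 MDI and 6 control arrays of C57BL/6 mice without it. Crofelemer, a chloride channel inhibitor, was given into the nose at 4 mg/kg, 4 h before each exposure. The labels do not say that replicate arrays come from separate animals, and p-values then measure the spread between these arrays only. In whole lung, fewer ciliated cells and less RNA per ciliated cell cannot be told apart.

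The values are log2 signals over 22206 probe sets. Array means lay at 7.37 to 7.40 in BALB/c, 8.02 to 8.07 in B-cell deficient mice, 7.43 to 7.48 in C57BL/6 mice given crofelemer and 7.48 to 7.51 in C57BL/6 mice without it. MDI was compared with control inside such a level. A comparison of crofelemer with none, or of strains, runs across levels, and there the condition and any separate processing cannot be told apart. Differences are log2 values ± the moderated SE from limma, fitted over 49 arrays, and a gene is called when its Benjamini-Hochberg adjusted p over all probe sets is under 0.05. Array number limits the precision.

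Averaged over the 37 genes, the level was lowest in the mice given crofelemer. The mean was 7.89 ± 0.09 in MDI and 7.85 ± 0.10 in control BALB/c lungs (SD, n = 3 each). It was 8.80 ± 0.24 in MDI and 8.93 ± 0.19 in control lungs of B-cell deficient mice (SD, n = 7 and 9). With crofelemer it was 7.07 ± 0.25 in MDI and 7.05 ± 0.28 in control C57BL/6 lungs (SD, n = 3 and 5), and without crofelemer 8.16 ± 0.27 in MDI and 8.42 ± 0.20 in control C57BL/6 lungs (SD, n = 13 and 6). Relative to the mean of all probe sets of the same array, the genes stood at -0.38 in MDI and -0.40 in control lungs with crofelemer, and at 0.66 in MDI and 0.91 in control lungs without it. The highest of the 8 crofelemer arrays, at 7.36, lay below the lowest of the 19 C57BL/6 arrays without it, at 7.76. MDI and control arrays of each kind overlapped. Gene by gene, 32 of 37 had their highest group mean in B-cell deficient mice (20 in controls, 12 after MDI). Arrays of these mice also had the highest means over all probe sets, and the same count over all probe sets is not given here. Relative to the array mean, the genes stood at 0.76 in MDI and 0.88 in control lungs of B-cell deficient mice. That is not above the 0.91 of C57BL/6 controls. The lowest group mean was in crofelemer-treated mice for 27 genes and in BALB/c mice for the other 10. Array means over all probe sets were lowest in BALB/c mice and next lowest in crofelemer-treated mice. The count of lowest group means over all probe sets is not given here either.

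**Figure D1:**
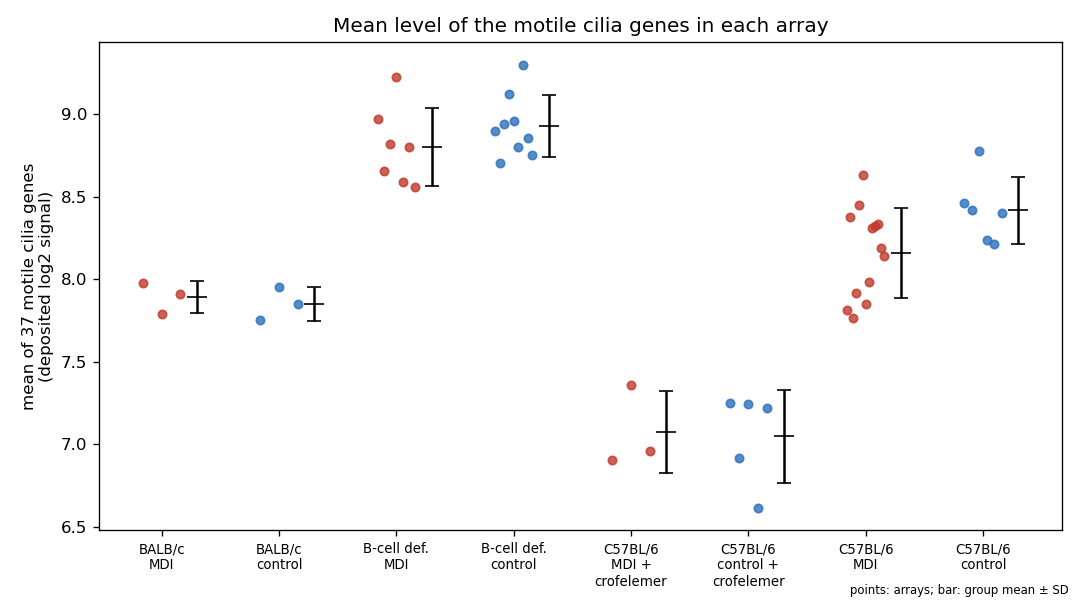
Mean deposited log2 signal of the 37 motile cilia genes in each of 49 arrays (points), with the group mean ± SD (bars); MDI groups are red and control groups blue. The 8 crofelemer arrays lie between 6.61 and 7.36, below the C57BL/6 arrays without crofelemer, which lie between 7.76 and 8.78.

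The first comparison asked what crofelemer did to these genes in C57BL/6 lungs that received the control solution. Structural genes of the axoneme were lower with crofelemer, many of them several-fold, and the transcription factors were not called. Of 37 genes, 28 fell and none rose, where 39.0% of all probe sets were called (21.4% lower, 17.6% higher). The median difference was -1.50, against 0.03 over all probe sets. In 22 genes every crofelemer array lay below every array without it, against 12.7% of all probe sets. After each array was centred on its median, 27 fell and 1 rose, and after quantile normalization 26 fell and none rose.

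Dynlrb2, a roadblock-type dynein light chain, read 6.70, 7.07, 7.40, 6.77 and 7.18 in the 5 crofelemer arrays and 9.40 to 10.04 (median 9.89) in the 6 arrays without it. The groups lay far apart, and Dynlrb2 fell by 2.80 ± 0.20 (adjusted p = 3.14e-16), or 6.95-fold. Cfap43, an axonemal protein needed for sperm flagella in mice, read 9.34, 8.63, 8.41, 7.68 and 8.92 with crofelemer and 10.88 to 12.10 (median 11.20) without. It fell by 2.75 ± 0.21 (adjusted p = 3.26e-15), again with no overlap. Ccdc39, part of the ruler that sets the axonemal repeat, read 6.98, 6.39, 6.63, 6.38 and 6.99 with crofelemer and 8.92 to 9.73 (median 9.12) without, and fell by 2.58 ± 0.20 (adjusted p = 7.2e-15). Every crofelemer array was more than 1 log2 unit below the lowest array without it. Ccdc153, an axonemal coiled-coil protein, read 7.60, 7.43, 7.83, 7.23 and 7.56 with crofelemer and 9.32 to 10.15 (median 9.56) without, and fell by 2.08 ± 0.19 (adjusted p = 5.8e-13).

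By role, all 4 intermediate and light dynein chains fell, with Dnai1 of the outer arm at -2.01 ± 0.20 and Dnali1 of the inner arm at -0.91 ± 0.16. Of 6 dynein heavy chains, 4 fell: Dnah11 (-1.50 ± 0.21), Dnah6 (-1.50 ± 0.27), Dnah5 (-0.80 ± 0.24) and Dnah10 (-0.55 ± 0.20). The outer arm chain Dnah9 (-0.40 ± 0.18, adjusted p = 0.0655) and the inner arm chain Dnah2 (0.01 ± 0.17, adjusted p = 0.962) were not called. In the radial spoke head, Rsph4a (-2.98 ± 0.27, 7.89-fold) and Rsph1 (-1.74 ± 0.17) fell, and Rsph9 stood at -0.39 ± 0.25, adjusted p = 0.207. In the central apparatus 5 of 6 genes fell, from Ak7, an adenylate kinase, at -2.95 ± 0.29 and Spef2 at -2.45 ± 0.28 to Spag16 at -0.83 ± 0.20, while Spag6l stood at -0.17 ± 0.16, adjusted p = 0.434. Both dynein assembly factors fell, Zmynd10 at -1.58 ± 0.30 and Lrrc6 at -1.51 ± 0.21. All 5 tektins and microtubule-associated genes fell, among them Tekt1 (-1.95 ± 0.21) and Tppp3 (-1.90 ± 0.31). Cdhr3, a cadherin-related protein of ciliated cells that serves as a rhinovirus receptor in humans, stood at -2.64 ± 0.28, and Sntn, a protein of the ciliary tip, at -2.25 ± 0.24; both fell. The nexin link gene Drc1 (-0.39 ± 0.19, adjusted p = 0.092) and the axonemal gene Cfap44 (-0.37 ± 0.21, adjusted p = 0.156) were not called.

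None of the 3 transcription factors was called. Mcidas, or multicilin, starts the multiciliated programme. Its probe set was dim, with a mean over 49 arrays of 4.45, at percentile 16.0 of all probe sets, and a fall may not register at such a level. Spag16, with a mean of 4.41 at percentile 15.4, was nevertheless called lower in this comparison (-0.83 ± 0.20). Mcidas read 4.52, 4.71, 4.36, 4.51 and 5.02 with crofelemer and 4.17 to 4.69 (median 4.29) without, a difference of 0.26 ± 0.17, adjusted p = 0.223. The groups overlapped. Rfx2 stood at 0.11 ± 0.19, adjusted p = 0.679 and Rfx3 at -0.42 ± 0.18, adjusted p = 0.0627.

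**Figure D2:**
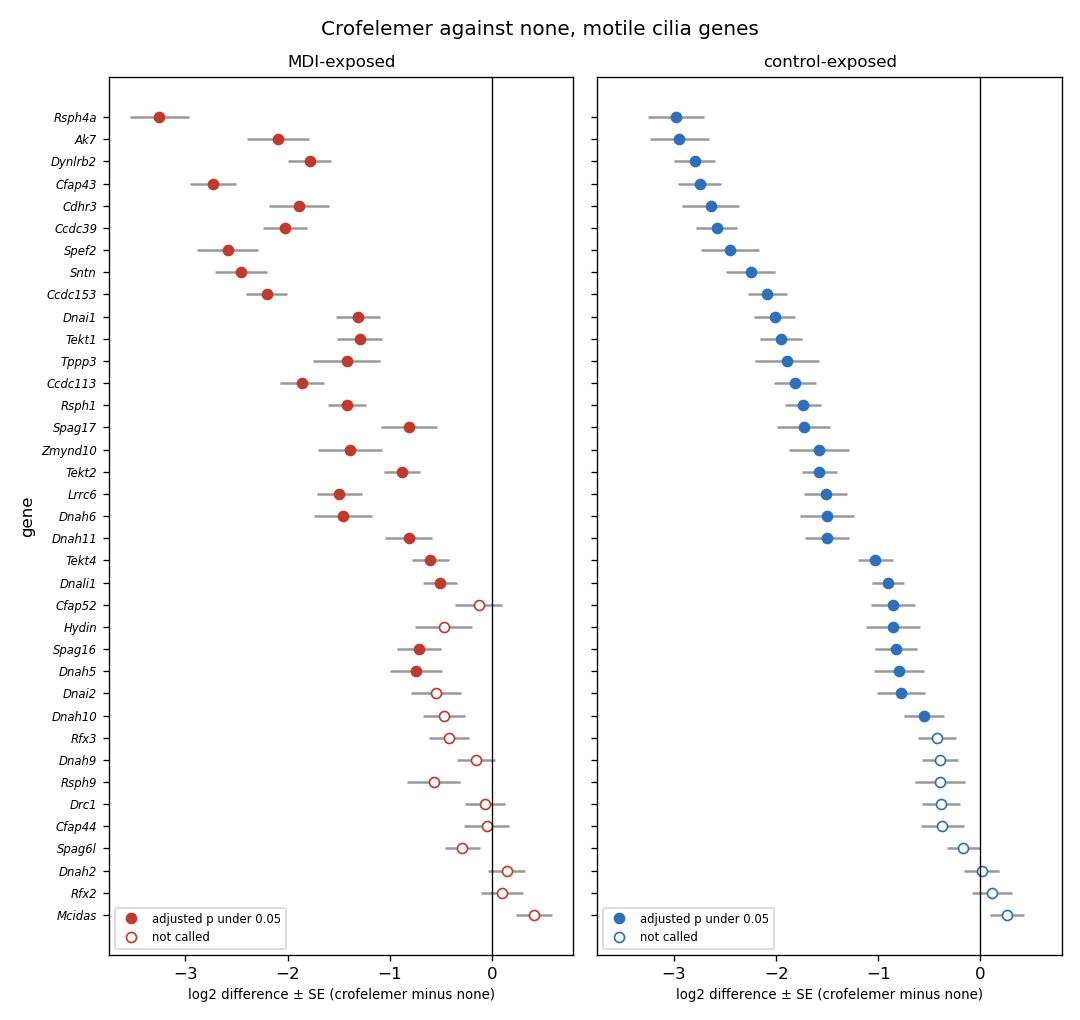
Log2 difference ± SE (crofelemer minus none) for each of the 37 genes in MDI-exposed (left, red) and control-exposed (right, blue) C57BL/6 lungs; filled points are called. All filled points lie below 0, 24 in MDI-exposed and 28 in control-exposed lungs.

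In MDI-exposed C57BL/6 lungs the same question gave 24 genes that fell with crofelemer and none that rose, where 32.6% of all probe sets were called (17.5% lower, 15.0% higher). All 24 were among the 28 that fell in control-exposed lungs. How many of all probe sets fell in both is not given here, so this overlap has no background beside it. The 2 comparisons share no arrays, but each sets the crofelemer arrays against a set at another array mean. The median was -0.82, against 0.04 over all probe sets. In 16 genes the crofelemer arrays lay below all arrays without it, against 8.87% of all probe sets. Rsph4a read 7.04, 8.20 and 7.44 in the 3 crofelemer arrays and 9.86 to 11.88 (median 10.83) in the 13 without it, and fell by 3.26 ± 0.29 (adjusted p = 4.36e-13), or 9.55-fold. Cfap43 read 9.25, 9.18 and 8.95 with crofelemer and 11.36 to 12.40 (median 11.83) without, and fell by 2.73 ± 0.22 (adjusted p = 4.31e-14). For both, all 3 crofelemer arrays were below every other one. Ccdc153 read 6.72, 7.44 and 7.50 with crofelemer and 8.97 to 9.79 (median 9.50) without, and fell by 2.21 ± 0.20 (adjusted p = 9.43e-13). Sntn read 6.19, 6.59 and 7.15 with crofelemer and 8.34 to 9.79 (median 9.22) without, and fell by 2.46 ± 0.25 (adjusted p = 4.3e-11), with no overlap either.

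Cfap52, a protein inside the doublet microtubules, was called in control-exposed lungs (-0.86 ± 0.22) and stood at -0.13 ± 0.23, adjusted p = 0.711 in MDI-exposed lungs. Dnah10, Dnai2 and Hydin, a central apparatus protein, likewise passed the threshold in control-exposed and not in MDI-exposed lungs, with -0.47 ± 0.21, -0.55 ± 0.25 and -0.47 ± 0.28 after MDI. Mcidas read 5.40, 4.48 and 4.50 with crofelemer and 3.92 to 4.98 (median 4.32) without, a difference of 0.42 ± 0.18, adjusted p = 0.0647. The highest crofelemer array, at 5.40, lay above all 13 others. Rfx2 stood at 0.10 ± 0.21 and Rfx3 at -0.42 ± 0.19.

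**Figure D3:**
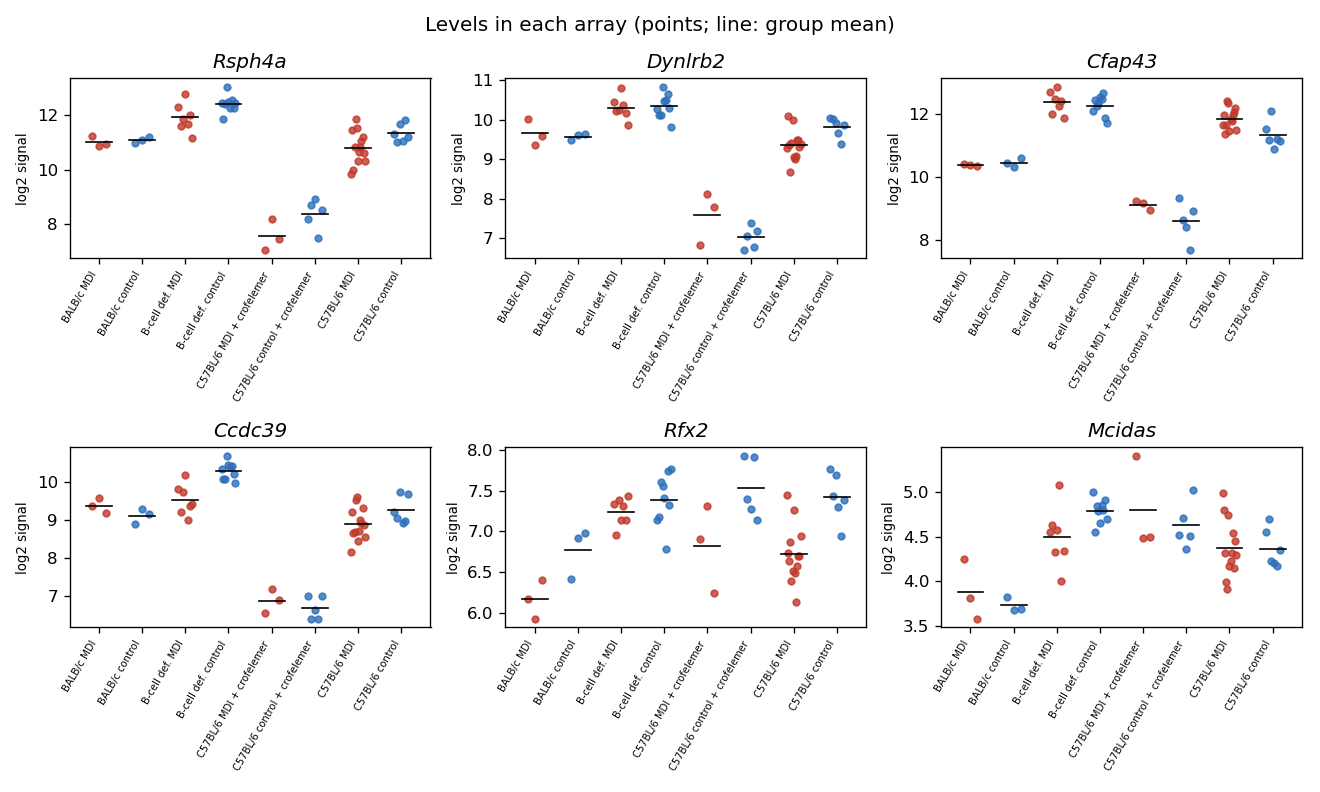
Deposited log2 signal of 6 genes in each array (points) with group means (lines); MDI groups are red and control groups blue. Rsph4a, Dynlrb2, Cfap43 and Ccdc39 are lowest in the 8 crofelemer arrays, while Rfx2 and Mcidas overlap between crofelemer and none.

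Other genes of the pathway were read from 3 lists, to be set against 21.4% of all probe sets called lower and 17.6% called higher in control-exposed lungs, and 17.5% lower and 15.0% higher in MDI-exposed lungs. Of 51 further axoneme and assembly genes, 39 fell and 3 rose with crofelemer in control-exposed lungs (median -1.04), and 34 fell and 1 rose in MDI-exposed lungs (median -0.82). Ccdc146 (-3.47 ± 0.22), Enkur (-3.28 ± 0.22), Cfap53 (-2.63 ± 0.18) and Fam183b (-2.89 ± 0.24) had the smallest adjusted p in control-exposed lungs, and Cfap100 (0.84 ± 0.18), Nme7 (0.74 ± 0.18) and Tekt3 (0.29 ± 0.10) were the 3 that rose. Of 19 intraflagellar transport genes, which carry cargo along the cilium, 9 fell and 1 rose in control-exposed lungs (median -0.39), and 7 fell and none rose in MDI-exposed lungs (median -0.18). Ift20 led both, at -2.57 ± 0.19 in MDI-exposed and -2.36 ± 0.18 in control-exposed lungs, followed by Ift74, at -1.72 ± 0.17 in MDI-exposed and -1.80 ± 0.16 in control-exposed lungs. Of 20 regulators of multiciliogenesis and centriole amplification, 4 fell and 3 rose in control-exposed lungs (median -0.18), a share below the 39.0% of all probe sets called there. Stil, a centriole duplication factor, rose there (2.18 ± 0.30), and Kif3a, a motor subunit of intraflagellar transport, fell by 1.00 ± 0.17 on the log2 scale. In MDI-exposed lungs 2 of the 20 fell and 2 rose (median 0.09).

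Markers of other lung cells also differed with crofelemer. Their counts stand beside 21.4% of all probe sets called lower and 17.6% called higher in control-exposed lungs. In MDI-exposed lungs these shares were 17.5% and 15.0%. Of 7 club cell markers, 6 fell in control-exposed lungs, and their mean level ranged from 13.8 to 14.9 with crofelemer and from 14.7 to 16.9 without. Their defining genes stood at -0.36 ± 0.07 (Scgb1a1), -1.29 ± 0.24 (Scgb3a2) and -2.47 ± 0.56 (Scgb3a1). In MDI-exposed lungs 3 of 7 fell, with mean levels of 14.1 to 15.6 with crofelemer and 14.7 to 16.5 without. Of 8 general epithelial markers, 5 rose in control-exposed lungs, led by the keratins Krt8 (1.85 ± 0.20) and Krt18 (1.56 ± 0.25), and their mean level was 10.8 to 11.6 with crofelemer and 10.1 to 10.7 without. In MDI-exposed lungs 4 rose and 1 fell, at 10.9 to 11.2 with crofelemer and 10.3 to 10.7 without. None of 7 basal cell markers was called in either comparison. Of 9 goblet cell markers 6 fell in MDI-exposed lungs, with mean levels of 8.40 to 9.82 with crofelemer and 10.3 to 12.1 without. Of 7 leukocyte markers 3 fell in each comparison. Of 7 alveolar type 1 cell markers 3 fell and 1 rose in control-exposed lungs, where their mean level was 13.28 to 13.81 with crofelemer and 13.90 to 14.10 without, with no overlap. In MDI-exposed lungs 2 fell and 1 rose, at 13.23 to 13.48 with crofelemer and 13.34 to 13.90 without. Of 5 squamous epithelium markers 1 rose in each comparison, and their mean level averaged 4.89 with crofelemer and 4.33 without in control-exposed lungs, and 4.86 with crofelemer and 4.44 without in MDI-exposed lungs. The part of these cell types in the result was not tested.

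Submission records fell into 3 blocks of accession numbers, which the labels do not call batches. Within block 1 alone the counts stayed at 24 of 37 in MDI-exposed and 28 of 37 in control-exposed lungs. In block 3, crofelemer control array 5 had a mean of 7.22 over the 37 genes, against 8.21 and 8.40 for the untreated control arrays 5 and 6 of that block.

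Promoters of some of these genes are shown because the structural genes moved together and because Rfx factors are known to bind the X-box, a pair of inverted repeats in promoters of cilia genes. RefSeq promoters (GRCm38.p6, 250 bases before to 50 after the gene start) were held for 38 of the 44 genes. GTTGCC, which is 1 repeat of that pair and is called the core below, was searched on both strands. A core alone is not a full X-box. It lay in 22 of 38 (57.9%), against 14.1% of 27025 genes with a promoter entry. The full X-box, GTTNCC and GNAAC with 3 letters between them, searched on both strands and able to overlap the core, lay in 4 of 38 (Hydin, Spag16, Tekt4 and Cfap44; 10.5%), against 0.936%. The forkhead motif TGTTTAC, searched on both strands for the family of Foxj1, lay in 3 of 38 (Ak7, Cfap43 and Sntn; 7.9%), against 4.05%. Among genes with a promoter entry, the core was present in 14 of the 24 that fell with crofelemer in control-exposed lungs and in 6 of the 9 that were not called. These matches describe letters and not binding. The 250 bases before the start are given 5′ to 3′ for 3 genes that fell and for Cfap44, which was not called, with matches in capitals.
Dynlrb2, chr8:116504765-116505014, plus strand: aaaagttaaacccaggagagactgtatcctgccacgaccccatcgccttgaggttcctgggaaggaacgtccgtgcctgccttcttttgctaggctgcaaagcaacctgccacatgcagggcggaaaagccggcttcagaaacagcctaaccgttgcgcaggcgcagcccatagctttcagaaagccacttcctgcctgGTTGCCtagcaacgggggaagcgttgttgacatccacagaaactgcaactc
Ccdc153, chr9:44240427-44240676, plus strand: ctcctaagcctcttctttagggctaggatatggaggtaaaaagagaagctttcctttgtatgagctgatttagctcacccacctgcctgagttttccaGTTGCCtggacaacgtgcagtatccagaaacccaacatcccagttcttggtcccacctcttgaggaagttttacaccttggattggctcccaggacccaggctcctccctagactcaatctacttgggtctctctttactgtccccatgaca
Sntn, chr14:13670626-13670875, plus strand: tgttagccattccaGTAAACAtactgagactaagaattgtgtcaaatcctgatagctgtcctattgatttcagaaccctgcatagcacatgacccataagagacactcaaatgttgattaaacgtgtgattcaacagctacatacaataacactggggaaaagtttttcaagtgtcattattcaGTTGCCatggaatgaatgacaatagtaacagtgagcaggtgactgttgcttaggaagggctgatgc
Cfap44, chr16:44394549-44394798, plus strand: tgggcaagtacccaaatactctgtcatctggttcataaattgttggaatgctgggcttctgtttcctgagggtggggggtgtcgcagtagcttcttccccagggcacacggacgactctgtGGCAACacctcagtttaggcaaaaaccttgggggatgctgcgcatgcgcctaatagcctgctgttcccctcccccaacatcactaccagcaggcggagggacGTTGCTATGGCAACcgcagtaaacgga
The Dynlrb2 core begins 51 bases before the start and the Ccdc153 core 152 bases before it. In Dynlrb2 the letters tagcaac follow the core. The search for the full X-box fixed 3 letters between the repeats, so a pair at a shorter spacing, as there, was not counted. Sntn carries a forkhead match 236 bases and a core 66 bases before the start. Cfap44 holds a full X-box 27 bases before the start, with a core inside it and another core farther upstream.

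Within groups the genes varied together to different degrees. After the group means were subtracted, 28 of 37 genes had a Pearson r above 0.5 with the mean of the other members over 49 arrays, up to 0.87 for Dnah6, 0.85 for Dnah5 and 0.81 for Cdhr3. Another 5 had an r under 0.3: Rfx2 (-0.10), Mcidas (-0.03), Drc1 (0.00), Dnah2 (0.18) and Dnah9 (0.21). The median over 666 pairs was 0.37. Arrays share their hybridisation and scaling across genes, so these values are a description. Of the 28 genes above 0.5, 26 fell with crofelemer in control-exposed lungs (median -1.66), and of the other 9, 2 fell (median -0.39), where 21.4% of all probe sets were called lower. In MDI-exposed lungs the counts were 23 of 28 (median -1.40) and 1 of 9 (median -0.13), where 17.5% of all probe sets were called lower.

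**Figure D4:**
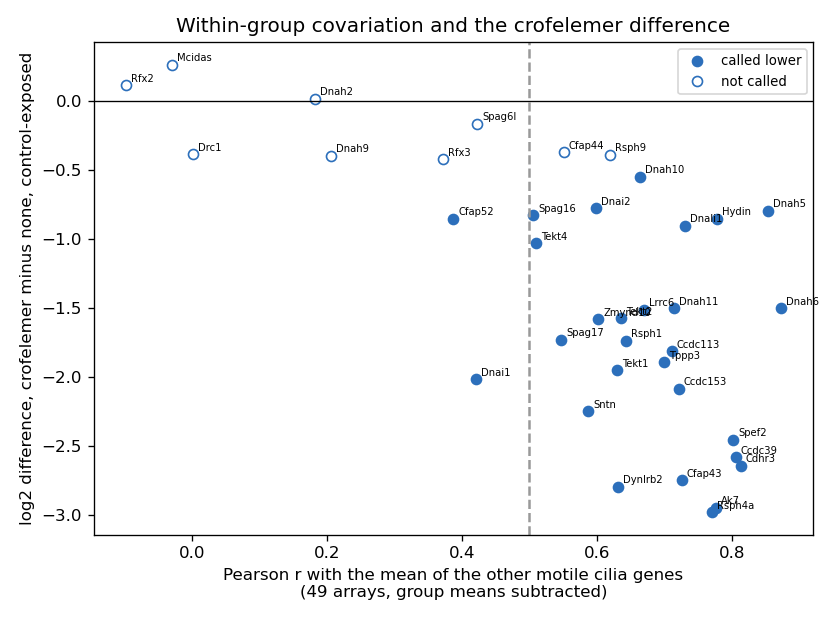
Pearson r of each gene with the mean of the other motile cilia genes within groups (49 arrays, x axis) against the log2 difference, crofelemer minus none, in control-exposed C57BL/6 lungs (y axis); filled points are called lower. To the right of r = 0.5, 26 of 28 genes are called lower; to its left, 2 of 9 are.

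The genes outside the list whose within-group pattern was most like the mean of the 37 were Cdc14a (r = 0.89), Nme5 (0.88), Fam161a (0.87), Cfap61 (0.87), 1700007K13Rik (0.86), Nek5 (0.84), Rgs22 (0.83), Drc3 (0.83), Lrrc74b (0.82) and 1110017D15Rik (0.82), over 49 arrays. Their group means did not all follow crofelemer. Nme5 averaged 7.71 with crofelemer and 9.76 without in control-exposed lungs, whereas Cdc14a averaged 10.75 with crofelemer and 10.83 without.

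MDI against control in C57BL/6 lungs asked what the airway exposure did to the genes without crofelemer. Changes were small: 6 of 37 genes fell and 1 rose, where 14.5% of all probe sets were called (9.23% lower, 5.30% higher). The median was -0.27, against 0.01 over all probe sets, and 30 of 37 differences were negative. In none of the 37 did the groups separate fully, where 0.459% of all probe sets separated on the higher and 0.617% on the lower side.

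Rfx2, a winged-helix factor of ciliogenesis, averaged 6.72 ± 0.35 in 13 MDI arrays (SD; median 6.70, highest 7.45) and 7.42 ± 0.29 in 6 control arrays (SD), which read 6.94 to 7.76 (median 7.41), and fell by 0.70 ± 0.16 (adjusted p = 0.00162). Tppp3, a tubulin polymerization promoting protein abundant in ciliated cells, read 11.08 to 13.54 (median 12.54) after MDI and 13.14 to 14.09 (median 13.34) in controls, and fell by 0.91 ± 0.25 (adjusted p = 0.0109), or 1.87-fold. Below all controls lay 10 of 13 MDI arrays for Rfx2 and 11 of 13 for Tppp3. Dnali1 read 8.60 to 9.32 (median 8.87) after MDI and 8.84 to 9.82 (median 9.35) in controls, and fell by 0.44 ± 0.13 (adjusted p = 0.0142). Zmynd10 read 4.68 to 7.17 (median 6.51) after MDI and 6.68 to 7.90 (median 7.20) in controls, and fell by 0.76 ± 0.24 (adjusted p = 0.0261). Tekt4 (-0.43 ± 0.14) and Rsph1 (-0.42 ± 0.14) also fell. Cfap43 read 11.36 to 12.40 (median 11.83) after MDI and 10.88 to 12.10 (median 11.20) in controls, and rose by 0.51 ± 0.17 (adjusted p = 0.0368), against the direction of the others. Mcidas read 3.92 to 4.98 (median 4.32) after MDI and 4.17 to 4.69 (median 4.29) in controls (0.01 ± 0.14, adjusted p = 0.97).

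Of the 37, Rfx2 and Tppp3 were called under every alternative that tested them. The count was 3 without control array 2 and 3 without control array 3, against 10 without MDI array 2, 5 or 6, 3 with the C57BL/6 arrays fitted alone and 4 after quantile normalization. The list counts that follow stand beside 9.23% of all probe sets called lower and 5.30% called higher. Of 51 further axoneme genes, 8 fell and 2 rose (median -0.21). Among them Ccdc151 (-0.79 ± 0.20) and Drc7 (-0.59 ± 0.17) fell and the outer arm heavy chain Dnah8 (1.27 ± 0.24) rose. Only 1 intraflagellar transport gene of 19 fell, Ttc21b (-0.55 ± 0.16). Of 20 regulators 3 rose and 1 fell. Of 9 goblet cell markers 8 rose with MDI, with a mean level of 10.3 to 12.1 after MDI and 6.75 to 9.05 in controls. Of 7 club cell markers 2 fell and 1 rose, and of 7 alveolar type 1 cell markers 5 fell. Their part in the result was not tested.

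In B-cell deficient lungs MDI was followed by changes in both directions. Of 37 genes 6 fell and 4 rose, where 36.9% of all probe sets were called (20.7% lower, 16.2% higher). The share of members called was below that background in either direction. The median was -0.15, against -0.06 over all probe sets. No gene was called both here and in C57BL/6. How many of all probe sets were called in both is not given here, so this count has no background beside it.

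Spag6l, of the central apparatus, read 6.83 to 7.35 (median 7.19) in MDI arrays and 7.49 to 8.15 (median 7.77) in control arrays. All 7 MDI arrays lay below all 9 controls, and Spag6l fell by 0.69 ± 0.14 (adjusted p = 9.02e-05). Ccdc39 read 8.99 to 10.18 (median 9.41) after MDI and 9.96 to 10.69 (median 10.33) in controls, and fell by 0.76 ± 0.17 (adjusted p = 0.000448). Cdhr3 read 12.42 to 13.69 (median 12.89) after MDI and 13.52 to 14.58 (median 13.94) in controls, and fell by 1.02 ± 0.23 (adjusted p = 0.000549), or 2.02-fold. In both genes the groups overlapped, with most MDI arrays at the low end. Tekt2 read 6.25 to 6.79 (median 6.30) after MDI and 6.61 to 7.42 (median 7.07) in controls, and fell by 0.56 ± 0.14 (adjusted p = 0.00149). Cfap52 (-0.57 ± 0.18) and Cfap44 (-0.48 ± 0.17) also fell.

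The genes that rose included heavy chains of both arms. Dnah9, of the outer arm, read 7.31 to 7.84 (median 7.60) after MDI and 6.73 to 7.29 (median 7.13) in controls, with no overlap, and rose by 0.48 ± 0.15 (adjusted p = 0.00827). Groups that did not overlap made up 2.36% of all probe sets on the lower and 4.67% on the higher side. Dnah2, of the inner arm, read 6.59 to 7.54 (median 7.31) after MDI and 6.32 to 7.11 (median 6.76) in controls, and rose by 0.46 ± 0.14 (adjusted p = 0.00958). Spag16, of the central apparatus, read 5.14 to 6.14 (median 5.52) after MDI and 4.69 to 5.67 (median 4.93) in controls, and rose by 0.48 ± 0.17 (adjusted p = 0.021). These last values overlapped. Rsph9, of the spoke head, read 7.65 to 8.65 (median 8.18) after MDI and 7.04 to 8.53 (median 7.77) in controls, and rose by 0.52 ± 0.20 (adjusted p = 0.0385). The Rsph9 call held in only 13 of 26 alternatives, with a difference as low as 0.16. Calls held in 21 of 25 alternatives for Spag16, 22 of 25 for Dnah2 and 23 of 25 for Dnah9. Mcidas read 4.00 to 5.07 (median 4.55) after MDI and 4.55 to 4.99 (median 4.79) in controls (-0.29 ± 0.14, adjusted p = 0.1).

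All 9 control arrays and 3 of the 7 MDI arrays of this genotype are in block 2, and the other 4 MDI arrays are in block 1. The mean over the 37 genes was 8.56 to 8.80 in MDI and 8.71 to 9.30 in control arrays of block 2, and 8.66 to 9.23 in the MDI arrays of block 1. Block 2 alone gave 13 called genes and the block as a fixed term gave 6. Without the 4 control arrays of narrow spread (1, 2, 5 and 6, with an SD over all probe sets under 3) 4 were called. All 5 squamous epithelium markers fell with MDI, their mean level being 4.09 to 7.02 after MDI and 5.63 to 10.6 in controls, highest in control array 7, which also had the highest mean over the 37 genes. Of 7 basal cell markers 5 fell, with mean levels of 5.29 to 5.77 after MDI and 5.50 to 6.65 in controls. All 7 leukocyte markers and 8 of 9 goblet cell markers rose, where 20.7% of all probe sets were called lower and 16.2% higher. Leaving out any single array kept the count between 8 and 11. The part of these cells was not tested.

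The further lists in B-cell deficient lungs stand beside 20.7% of all probe sets called lower and 16.2% called higher. Of 51 further axoneme genes 11 fell and 4 rose there (median -0.17). Ccdc65 (-0.48 ± 0.12), a nexin link protein, and Fam183b (-0.75 ± 0.20) fell, while Dnah8 (1.82 ± 0.24) and Nme7 (1.10 ± 0.15) rose. Among 19 intraflagellar transport genes 2 rose, Ift52 (0.62 ± 0.11) and Dync2h1 (0.46 ± 0.19), and 2 fell, Wdr19 (-0.43 ± 0.14) and Wdr35 (-0.46 ± 0.15). Among 20 regulators 4 rose and 2 fell.

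**Figure D5:**
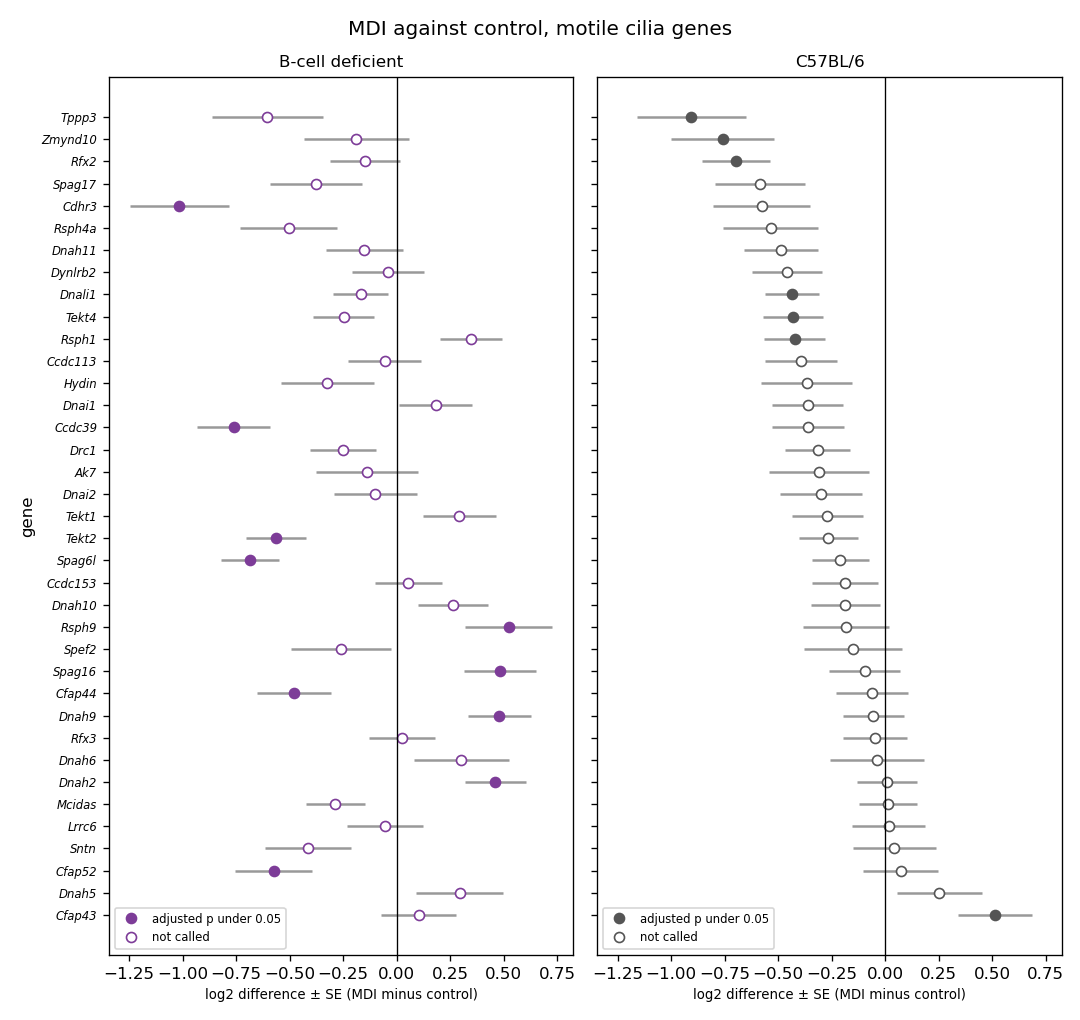
Log2 difference ± SE (MDI minus control) for each of the 37 genes in B-cell deficient (left) and C57BL/6 (right) lungs; filled points are called. Filled points lie on both sides of 0 in B-cell deficient lungs (6 lower, 4 higher), and 6 of 7 lie below 0 in C57BL/6 lungs.

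The difference between the 2 MDI effects was tested as an interaction. It called 1 of 37 genes, where 20.3% of all probe sets were called (9.27% higher, 11.0% lower). Rsph1 read 6.28 to 7.19 (median 6.69) in MDI and 5.97 to 6.75 (median 6.38) in control lungs of B-cell deficient mice. In C57BL/6 mice it read 4.60 to 5.82 (median 5.19) in MDI and 5.49 to 5.95 (median 5.61) in control lungs. The MDI effect was 0.35 ± 0.15 in B-cell deficient lungs, which was not called (adjusted p = 0.0536), and -0.42 ± 0.14 in C57BL/6 lungs, and differed by 0.77 ± 0.20, adjusted p = 0.00648. The other 36 differences did not pass, so the calls that appear in a single genotype are not shown to differ. Mcidas stood at -0.30 ± 0.19, adjusted p = 0.275. Without the 4 narrow control arrays no gene was called.

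In BALB/c lungs, with 3 arrays a group, none of 37 genes was called after MDI by limma, where 0.302% of all probe sets were called (0.0405% lower, 0.261% higher). Of the 37, 1 had an unadjusted p under 0.05, a looser measure whose share over all probe sets is not given here. Rfx2 read 6.17, 5.92 and 6.40 after MDI and 6.42, 6.92 and 6.98 in controls (-0.61 ± 0.26, adjusted p = 0.693). All 3 MDI arrays were below all 3 controls, as in 6.83% of all probe sets. On the higher side the groups of Dnah6 (0.52 ± 0.36), Dnah5 (0.40 ± 0.33) and Dnah2 (0.23 ± 0.23) did not overlap, as in 7.48% of all probe sets, and none of these was called. Spag16 read 3.40, 3.83 and 4.26 after MDI and 3.45, 3.43 and 3.39 in controls (0.41 ± 0.27, adjusted p = 0.999). Rfx3 read 9.17, 8.81 and 9.40 after MDI and 9.24, 9.61 and 9.62 in controls (-0.36 ± 0.25, adjusted p = 0.999). Both overlapped. Mcidas read 4.25, 3.82 and 3.58 after MDI and 3.83, 3.68 and 3.69 in controls (0.15 ± 0.23). The median over the 37 was 0.05, against -0.01 over all probe sets. Of the 51 further axoneme genes, Dnah8 rose (1.66 ± 0.39) and no other was called.

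The interaction between BALB/c and C57BL/6 called none of 37 genes, where 0.0270% of all probe sets were called (0.0135% in each direction). Of the 37, 1 had an unadjusted p under 0.05, a looser measure whose share over all probe sets is not given here. The smallest p was for Zmynd10, which read 7.64, 6.83 and 7.12 after MDI and 6.86, 6.62 and 6.78 in controls in BALB/c. Its effect differed from that in C57BL/6 by 1.20 ± 0.46, adjusted p = 0.473. Ccdc39 read 9.36, 9.57 and 9.18 after MDI and 8.88, 9.29 and 9.16 in controls, with a difference of 0.62 ± 0.32, adjusted p = 0.665. Cfap43 read 10.40, 10.39 and 10.36 after MDI and 10.44, 10.33 and 10.61 in controls, with a difference of -0.59 ± 0.33, adjusted p = 0.704. Mcidas stood at 0.14 ± 0.26, adjusted p = 0.95.

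With crofelemer, MDI against control called none of 37 genes, where 0.0540% of all probe sets were called (0.0180% lower, 0.0360% higher). Of the 37, 6 had an unadjusted p under 0.05, a looser measure whose share over all probe sets is not given here. Cfap52 read 9.04, 9.11 and 9.17 after MDI and 7.99, 8.26, 8.45, 7.97 and 8.87 in controls (0.80 ± 0.26, adjusted p = 0.305). Its groups did not overlap; such groups made up 1.80% of all probe sets on the higher and 1.16% on the lower side. Rfx2 read 6.91, 7.31 and 6.24 after MDI and 7.93, 7.40, 7.28, 7.91 and 7.14 in controls (-0.71 ± 0.23, adjusted p = 0.313). Rsph4a read 7.04, 8.20 and 7.44 after MDI and 8.20, 8.72, 8.92, 7.49 and 8.52 in controls (-0.81 ± 0.33, adjusted p = 0.473). Mcidas stood at 0.17 ± 0.20. Without crofelemer the Rfx2 difference was -0.70 ± 0.16.

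The interaction of crofelemer with MDI called none of 37, where 0.423% of all probe sets were called (0.243% lower, 0.180% higher). Of the 37, 8 had an unadjusted p under 0.05, a looser measure whose share over all probe sets is not given here. Dynlrb2 read 6.83, 8.11 and 7.80 after MDI and 6.70, 7.07, 7.40, 6.77 and 7.18 in controls with crofelemer, and 8.67 to 10.10 (median 9.37) after MDI and 9.40 to 10.04 (median 9.89) in controls without it. Its effects differed by 1.01 ± 0.29, adjusted p = 0.111. Tekt2 read 4.78, 4.76 and 4.99 after MDI and 4.58, 4.66, 4.49, 4.02 and 4.30 in controls with crofelemer, and its effects differed by 0.70 ± 0.25, adjusted p = 0.214. Spag17 read 5.65, 6.07 and 5.79 after MDI and 5.76, 5.16, 4.98, 5.67 and 5.93 in controls with crofelemer, and its effects differed by 0.92 ± 0.38, adjusted p = 0.294. Mcidas stood at 0.16 ± 0.24, adjusted p = 0.854. The median over the 37 was 0.23, against 0.02 over all probe sets.

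Control lungs of the strains were also set side by side. In B-cell deficient against C57BL/6 controls 21 of 37 genes were called higher and 1 lower, where 71.3% of all probe sets were called (64.4% higher, 6.82% lower). The median over the 37 was 0.53 and that over all probe sets 0.54. After each array was centred on its median, the median over the 37 was -0.03, with 5 genes called higher and 9 lower, and after quantile normalization 9 were called higher and 6 lower. Spag6l read 7.49 to 8.15 (median 7.77) in B-cell deficient and 5.82 to 6.64 (median 6.25) in C57BL/6 controls (1.57 ± 0.14, adjusted p = 1.02e-13). Tekt2 read 6.61 to 7.42 (median 7.07) in B-cell deficient and 5.53 to 6.53 (median 6.04) in C57BL/6 controls (1.02 ± 0.15, adjusted p = 3.02e-08). Neither gene's groups overlapped, as in 40.3% of all probe sets on the higher side. The Spag6l call held in all 22 alternatives. The Tekt2 call held in 21 of 22, with a difference as low as 0.26. Ccdc39 read 9.96 to 10.69 (median 10.33) in B-cell deficient and 8.92 to 9.73 (median 9.12) in C57BL/6 controls (1.03 ± 0.18, adjusted p = 1.46e-06). Cfap52 read 9.87 to 10.80 (median 10.13) in B-cell deficient and 8.80 to 9.59 (median 9.11) in C57BL/6 controls (1.05 ± 0.19, adjusted p = 3.11e-06). The called gene that ran the other way was Dnah11, of the outer arm. Dnah11 read 8.96 to 9.78 (median 9.52) in B-cell deficient and 9.80 to 10.24 (median 10.05) in C57BL/6 controls (-0.60 ± 0.19, adjusted p = 0.0038). Mcidas was called higher (0.42 ± 0.15, adjusted p = 0.00929), but stood at -0.14 after centring and -0.45 after quantile normalization.

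In BALB/c against C57BL/6 controls 16 of 37 genes were called lower and none higher, where 32.0% of all probe sets were called (21.5% lower, 10.5% higher). The median over the 37 was -0.47, against -0.13 over all probe sets. After median centring these were -0.24 and 0.11, with 8 genes called lower and 1 higher. Dnah10 read 4.95, 4.98 and 4.73 in BALB/c and 6.72 to 7.62 (median 7.11) in C57BL/6 controls (-2.26 ± 0.23, adjusted p = 4.33e-11). Ccdc153 read 7.25, 7.75 and 7.99 in BALB/c and 9.32 to 10.15 (median 9.56) in C57BL/6 controls (-1.95 ± 0.22, adjusted p = 1.04e-09). Both were apart by more than 1 log2 unit. Cfap52 read 7.58, 7.06 and 7.78 in BALB/c and 8.80 to 9.59 (median 9.11) in C57BL/6 controls (-1.69 ± 0.25, adjusted p = 7.76e-07). Rsph1 read 4.39, 5.04 and 4.73 in BALB/c and 5.49 to 5.95 (median 5.61) in C57BL/6 controls (-0.94 ± 0.20, adjusted p = 0.000339). Of 6 dynein heavy chains 5 were called lower, and none of 4 intermediate and light chains was called. Mcidas, whose probe set was dim, was called lower (-0.63 ± 0.20, adjusted p = 0.0108). That call held in 15 of 17 alternatives, and the smallest difference among them was -0.40.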

How the data were processed

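Total RNA of whole lung was labelled (250 ng per array) and hybridised to 1-colour arrays. The deposited table holds log2 signals of 22206 probe sets in 51 arrays. The authors made it with Transcriptome Analysis Console, per the submitters' processing notes. The sources used here give neither its version nor the normalization, and base 2 was read off the span of the values. No value was rescaled. Of the arrays, 49 formed 8 groups, and 2 whose title contradicts their other labels were unassigned. Genes were named from the platform annotation (19572 probe sets with 1 symbol and 2634 without).

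A linear model per probe set was fitted by limma (3.58.1, under R 4.3.3) with 1 mean per group, an intensity trend and 2-sided moderated tests, checked on simulated data. Calls have a Benjamini-Hochberg adjusted p under 0.05 over all probe sets. Plots came from Python 3.11.15 and matplotlib 3.10.9. The members and lists were chosen with earlier results of these data known. In each comparison, values per array are given for up to 4 genes called in each direction by smallest adjusted p, for the 3 smallest p where none was called, and for Mcidas. Alternatives were the scaling, a filter on dim probe sets, variance model, array weights, samples fitted, submission block, replicate number and leaving out single arrays.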

Additional observations from a re-analysis of the deposited data

Results flagged for a closer look

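The MDI effect on Rsph1, a radial spoke head gene, differed between B-cell deficient and C57BL/6 lungs by 0.77 ± 0.20 on the log2 scale (adjusted p = 0.00648, limma's interaction test). It was the 1 gene called of 37, where 20.3% of all probe sets were called. The MDI difference was 0.35 ± 0.15 in B-cell deficient lungs, where the groups overlapped and it was not called (adjusted p = 0.0536). In C57BL/6 lungs it was -0.42 ± 0.14 and called lower, a call that held in 13 of 27 alternatives. The interaction held in 41 of 43 alternatives, of which 35 only left out a single array. It was lost in 2 of the others, 1 of them being the fit without the 4 control arrays of narrow spread. All 9 B-cell deficient control arrays are in block 2, and 4 of the 7 MDI arrays are in block 1. In 52 groups of 4 to 10 arrays tested for named genes and for the mean over the 37, no single array stood apart by Dixon's test, which by chance marks about 1 in 20 groups.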

How the results depend on the processing

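The count of called genes moved by less than 1.5 times for crofelemer in control-exposed lungs under every alternative (26 to 30 of 37 when single arrays were left out), and 26 of its 28 calls passed in every alternative that tested them. Fewer calls did so elsewhere: 15 of 24 for crofelemer in MDI-exposed lungs, 2 of 7 for MDI in C57BL/6 and 4 of 10 in B-cell deficient lungs. Against C57BL/6 controls it was 5 of 22 for B-cell deficient and 7 of 16 for BALB/c controls. Among counts that moved by more than 1.5 times, median centring gave 3 for the interaction of MDI with B-cell deficiency (1 as reported), 14 for B-cell deficient against C57BL/6 controls (22) and 9 for BALB/c against C57BL/6 controls (16). Quantile normalization gave 4 for MDI in C57BL/6 (7), 4 for that interaction and 9 for BALB/c controls. A filter that kept probe sets above the median, and with them 22 of the 37 genes, gave 5 for MDI in B-cell deficient lungs (10), 0 for the interaction, 12 for B-cell deficient controls and 9 for BALB/c controls. Array weights gave 2 for the interaction, and fitting only the groups compared gave 3 for MDI in C57BL/6 and 2 for the interaction. The submission block as a fixed term gave 6 for MDI in B-cell deficient lungs. Without the 4 control arrays of narrow spread, an alternative chosen after seeing the data, that count was 4 and the interaction 0. The cause was not tested, apart from the fewer genes under the filter.

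Same-numbered arrays share only a number: their deviations from the group means correlated between -0.31 and 0.31, and in no comparison was every correlation over 0.1. With the replicate number as a block, the counts were 2 for MDI in C57BL/6, 16 in B-cell deficient lungs, 15 for crofelemer in MDI-exposed lungs (24) and 4 for the interaction.

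Leaving out single arrays gave ranges of 3 to 10 for MDI in C57BL/6, 8 to 11 in B-cell deficient lungs, 20 to 27 for crofelemer in MDI-exposed lungs, 1 to 4 for the interaction with B-cell deficiency, 0 to 1 for that with crofelemer, 20 to 24 for B-cell deficient and 11 to 16 for BALB/c controls. Signs were followed for called genes, and for 3 genes in each comparison that called none. Among these, 6 values turned sign, all of which compare B-cell deficient with C57BL/6 controls: under median centring Mcidas at -0.14, Dynlrb2 at -0.031 and Lrrc6 at -0.15, and under quantile normalization Mcidas at -0.45, Rsph1 at -0.13 and Spag16 at -0.16. Each gene had 1 probe set, so the alternative of another probe set gave no value. Signal over background was not used here.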

Other observations

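The 2 unassigned arrays have a title that contradicts their other labels. The array titled as number 4 of MDI with crofelemer had a mean of 7.58 over the 37 motile cilia genes, with Rsph4a at 8.75 and Dynlrb2 at 8.32. The array titled as MDI number 13 had a mean of 8.00, with Rsph4a at 9.89 and Dynlrb2 at 9.28. Both lie in block 3.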
